A study of Arabidopsis thaliana with 6 samples.

Results

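miR165 and miR166 are the miRNAs of Arabidopsis thaliana that silence the HD-ZIP III transcription factors. They were taken as every entry of the deposited miRNA tables in which any of the joined names is a miR165 or miR166, on either arm of the hairpin. This gave 5 of the 197 entries, 2 of miR165 and 3 of miR166, which together join 13 of the 242 mature names. The comparison was between wild-type seedlings (WT) and seedlings of the mutant aar2-1, each 14 days old and grown on MS medium with 16 h light and 8 h dark a day, with 3 libraries of total small RNA per genotype, described by the submitters as biological replicates. The labels give no further detail of the aar2-1 allele, and the miRNA tables do not measure AAR2 transcripts. AAR2 is known from yeast as an assembly factor of the U5 particle of the spliceosome.

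A plant miRNA gene is transcribed into a hairpin that DCL1 cuts into a duplex. The arm that is kept in an Argonaute protein is the guide, and the other arm is mostly degraded. For miR165 and miR166 the guide is the 3p arm, which pairs with the transcripts of PHB, PHV, REV, ATHB-8 and ATHB-15. In leaf primordia these miRNAs act on the lower (abaxial) side and confine HD-ZIP III activity to the upper (adaxial) side, and AGO10 binds them in the shoot apex and keeps them from AGO1.

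The 5 mature sequences are shown because they decide which loci each value can be assigned to. They were read from the RefSeq annotation of TAIR10.1, are 21 bases long, and are printed 5′ to 3′ with the seed (bases 2 to 8) in capitals. In the tables the miR166 guide entry joins miR166a-3p, miR166b-3p, miR166c, miR166d, miR166e-3p, miR166f and miR166g, and the miR165 guide entry joins miR165a-3p and miR165b.
miR166 guide (3p): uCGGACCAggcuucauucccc
miR165 guide (3p): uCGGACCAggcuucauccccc
miR166a-5p and miR166b-5p: gGACUGUUgucuggcucgagg
miR165a-5p: gGAAUGUUgucuggaucgagg
miR166e-5p: gGAAUGUUgucuggcacgagg

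The guides share the seed CGGACCA, which no other entry of the tables has, and both begin with U, the first base that AGO1 prefers. They are identical at 20 of 21 positions, and the difference from miR165 to miR166 is C17U, counted from the 5′ end of the guide. Whether reads with a mismatch were accepted is not given in the sources used here, so the separation of miR165 from miR166 rests on that base. The 5p arms begin with G. Each pair of 5p entries differs at 2 positions: from miR165a-5p to miR166e-5p A15C and U16A, from miR165a-5p to miR166a-5p and miR166b-5p A4C and A15C, and from miR166e-5p to miR166a-5p and miR166b-5p A4C and A16U. The seed GAAUGUU is shared by miR165a-5p and miR166e-5p.

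The miR166 guide occurs exactly 7 times in the nuclear genome and the miR165 guide 2 times, each time at an annotated locus. Reads of the guides therefore cannot be assigned to single genes. MIR166a (chromosome 2, 19176108 to 19176277) and MIR166b (chromosome 3, 22922206 to 22922325) are on the plus strand. The other miR166 genes are on chromosome 5: MIR166c at 2838635 to 2838773, MIR166d at 2840622 to 2840734, MIR166f at 17516301 to 17516405 and MIR166g at 25504798 to 25504919 on the plus strand, and MIR166e at 16775520 to 16775662 on the minus strand. MIR165a lies at 78927 to 79037 on the minus strand of chromosome 1, and MIR165b at 369831 to 370012 on the minus strand of chromosome 4. No mature sequence overlaps another annotated gene on its own strand. At MIR165a an annotated noncoding RNA gene, AT1G08765, runs over both arms on the opposite strand, and whether reads were counted by strand is not given in the sources used here.

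The 5p arms narrow down the source. miR165a-5p and miR166e-5p match 1 place each, and the miR166a-5p and miR166b-5p sequence matches 2. The tables list a 5p arm for 4 of the 9 loci, whose hairpins are shown with both mature arms in capitals, the 5p arm first.
MIR165a: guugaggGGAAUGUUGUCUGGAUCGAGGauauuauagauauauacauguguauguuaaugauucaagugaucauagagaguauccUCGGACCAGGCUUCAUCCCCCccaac
MIR166a: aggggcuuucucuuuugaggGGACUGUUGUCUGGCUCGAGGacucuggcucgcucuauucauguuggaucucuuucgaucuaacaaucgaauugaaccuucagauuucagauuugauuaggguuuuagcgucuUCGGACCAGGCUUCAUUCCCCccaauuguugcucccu
MIR166b: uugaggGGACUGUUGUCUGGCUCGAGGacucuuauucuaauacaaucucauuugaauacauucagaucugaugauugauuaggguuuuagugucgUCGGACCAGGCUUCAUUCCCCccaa
MIR166e: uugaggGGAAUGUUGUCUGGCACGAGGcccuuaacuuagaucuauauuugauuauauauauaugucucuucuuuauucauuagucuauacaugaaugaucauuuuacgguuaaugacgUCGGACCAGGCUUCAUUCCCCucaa

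In these 4 hairpins the arms are 57 (MIR165a), 92 (MIR166a), 68 (MIR166b) and 91 (MIR166e) bases apart. In the structure of lowest free energy predicted by RNAfold, 17 of the 21 guide bases were paired in each of the 4.

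The target sites place the single base by which the guides differ. The best 21-base site of each HD-ZIP III transcript is shown as RNA, 5′ to 3′, with capitals where it can form a Watson-Crick pair with the miR166 guide.
PHB: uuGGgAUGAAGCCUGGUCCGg
PHV: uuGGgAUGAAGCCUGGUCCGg
REV: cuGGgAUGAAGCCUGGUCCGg
ATHB-8: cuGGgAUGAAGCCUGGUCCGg
ATHB-15: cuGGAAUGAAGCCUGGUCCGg

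The PHB and PHV sites, in genes that specify the upper leaf side, have the same 21 bases, as do those of REV, which acts in leaf polarity and vasculature, and ATHB-8, a gene of the procambium. In these 4 transcripts guide position 17 of miR166 faces a G, a G:U pair, and miR165 pairs there fully, so that 4 positions lack a Watson-Crick pair with miR166 and 3 with miR165. In ATHB-15 (also called CNA), which acts in the meristem and vasculature, it is the reverse: 3 positions lack one with miR166 and 4 with miR165. All 21 bases of each site are coding, and each site spans an exon junction. The PHB site (AT2G34710) covers 14642530 to 14642539 and 14642656 to 14642666 on chromosome 2, minus strand. The PHV site (AT1G30490) covers 10799330 to 10799339 and 10799435 to 10799445, and the ATHB-15 site (AT1G52150) 19412976 to 19412985 and 19413075 to 19413085, both on chromosome 1, minus strand. The REV site (AT5G60690) covers 24398787 to 24398797 and 24398889 to 24398898 on chromosome 5, plus strand, and the ATHB-8 site (AT4G32880) 15866872 to 15866881 and 15866964 to 15866974 on chromosome 4, minus strand. Among 27440 protein-coding genes scanned, PHB, PHV, REV and ATHB-8 had the fewest mismatches to miR165 (3, with a G:U pair counted as a mismatch), and ATHB-15 the fewest to miR166 (3). At 4 mismatches or fewer, 7 genes had a site for miR165 and 11 for miR166. Transcript levels of these genes were not analysed here.

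RPM is the read number of an entry scaled to a common library total. With the lowest value above 0 in a library taken as 1 read, the implied totals were 7062198 to 11524176 reads per library. Of those reads, 449241 to 497904 reads per library in WT and 146758 to 318995 in aar2-1 belonged to the 197 miRNA entries. Over all 131 tested entries (mean of at least 1 RPM) the median log2 fold change in aar2-1 was -0.83, so most miRNAs were lower in the mutant on this scale. All 5 miR165 and miR166 entries passed the filter, with 41 to 26240 reads in every library and no value of 0.

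Both guide arms fell more than 4-fold in aar2-1. The miR166 guide had 2800, 2565 and 2223 RPM in WT replicates 1 to 3 and 768, 516 and 523 RPM in aar2-1 replicates 1 to 3. Every mutant library lay below every WT library, and aar2-1 replicate 1 was the highest of the mutants. From a WT mean of 2530 ± 290 RPM it fell 4.20-fold to 602 ± 144 RPM (SD over 3 libraries each), which is -2.09 ± 0.24 (SE) on the log2 scale with an adjusted p of 6.22e-06 in limma. Among the 197 entries of a library the miR166 guide held place 4, 4 and 6 by abundance in WT and place 7, 7 and 6 in aar2-1.

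In the same order, the miR165 guide was at 586, 563 and 481 RPM in WT, and the mutants were at 163, 105 and 105 RPM. Again no mutant library reached the WT range, and replicate 1 stood above the other two mutants. It fell 4.37-fold, from 543 ± 55.1 to 124 ± 34.0 RPM on average (SD over 3 libraries each), a log2 difference of -2.15 ± 0.28 (SE) (adjusted p 1.89e-05 in limma). In bulk seedlings, fewer cells that make these miRNAs and less miRNA per cell cannot be told apart.

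The 5p arms were also lower in aar2-1, by about 2.5-fold. The entry of miR166a-5p and miR166b-5p had 121, 94.8 and 103 RPM in the WT libraries against 61.8, 35.4 and 28.4 RPM in the mutants, with means of 106 ± 13.6 and 41.9 ± 17.6 RPM (SD, n = 3 each). This 2.54-fold decrease is -1.39 ± 0.33 (SE) on the log2 scale, with an adjusted p of 0.00214 in limma. For miR165a-5p the WT libraries had 35.9, 33.0 and 29.0 RPM and the mutants 15.7, 9.91 and 10.1 RPM. It decreased 2.74-fold, -1.41 ± 0.31 (SE) on the log2 scale (adjusted p 0.00132 in limma). The groups did not overlap for either entry.

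The least abundant, miR166e-5p, had 16.3, 16.1 and 14.5 RPM in WT against 7.46, 5.95 and 4.66 RPM in aar2-1, without overlap. The WT values rest on 153, 157 and 123 reads and the mutant values on 86, 42 and 41. The 2.60-fold decrease is -1.26 ± 0.30 (SE) on the log2 scale (adjusted p 0.00202 in limma). Summed, the miR166 5p arms fell from 122 ± 13.9 to 47.9 ± 19.0 RPM (SD over 3 libraries each), a difference of -1.39 ± 0.34 (SE) on the log2 scale. Its adjusted p was 0.00150 in limma over 107 families by arm, of which 62.6% passed as lower.

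**Figure D1:**
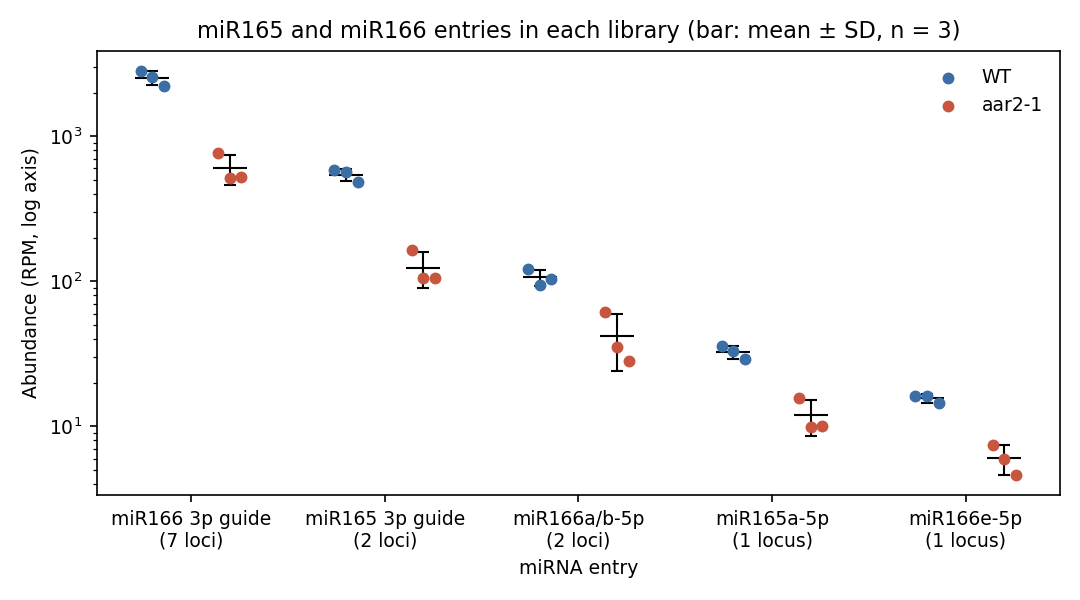
Abundance of the 5 miR165 and miR166 entries in RPM on a log axis, by entry on the x axis, for 3 WT and 3 aar2-1 libraries (points), with the mean and SD. The points of the genotypes do not overlap for any of the 5 entries, and aar2-1 replicate 1, the leftmost mutant point, is the highest mutant each time.

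All 5 entries thus passed as lower, and the genotypes did not overlap for any of the 5. Over all tested entries 61.1% passed as lower (63.4% in either direction) and 59.5% were lower without overlap, and 5 entries are too few to be set apart from those shares by their count. The size of the change differed between arms: among the 131 entries ordered from the most negative log2 fold change, the miR165 guide was at place 9 and the miR166 guide at place 10, whereas the 5p entries were at places 31, 32 and 37.

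The guides were also lower relative to the other miRNAs, and the 5p arms did not pass that test. Median-ratio scaling divides each library by 1 factor. The factor came from the entries with a mean of at least 10 RPM and reads in every library, so changes are relative to these more abundant entries. With it the median over all tested entries was 0.014, a shift of 0.84, and 27 entries passed as lower and 22 as higher, in place of 80 and 3. Entries called lower were then 20.6% of those tested. On that scale the log2 fold change was -1.07 (SE 0.21) for the miR165 guide and -1.01 (SE 0.20) for the miR166 guide, each with a limma adjusted p of 9.29e-05. It was -0.38 for miR165a-5p, -0.33 for the miR166a-5p and miR166b-5p entry and -0.29 for miR166e-5p (limma adjusted p 0.226, 0.252 and 0.409).

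Other scalings gave the guides smaller values of the same sign. After centring on the median (12 entries lower, 55 higher, median 0.52) the miR165 and miR166 guides were at -0.80 and -0.75 on the log2 scale (limma adjusted p 0.00604 and 0.00483). After quantile normalization (16 lower, 18 higher, median 0.064) they were at -0.83 and -0.42 (limma adjusted p 0.0236 and 0.0480). Fitted as arm sums rather than entries, the miR166 guide missed the threshold after quantile normalization (-0.37, limma adjusted p 0.0934). No 5p entry passed under either scaling, and miR166e-5p turned positive in both (0.080 and 0.010), but the summed miR166 5p arms passed after quantile normalization (-0.47, limma adjusted p 0.0124).

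**Figure D2:**
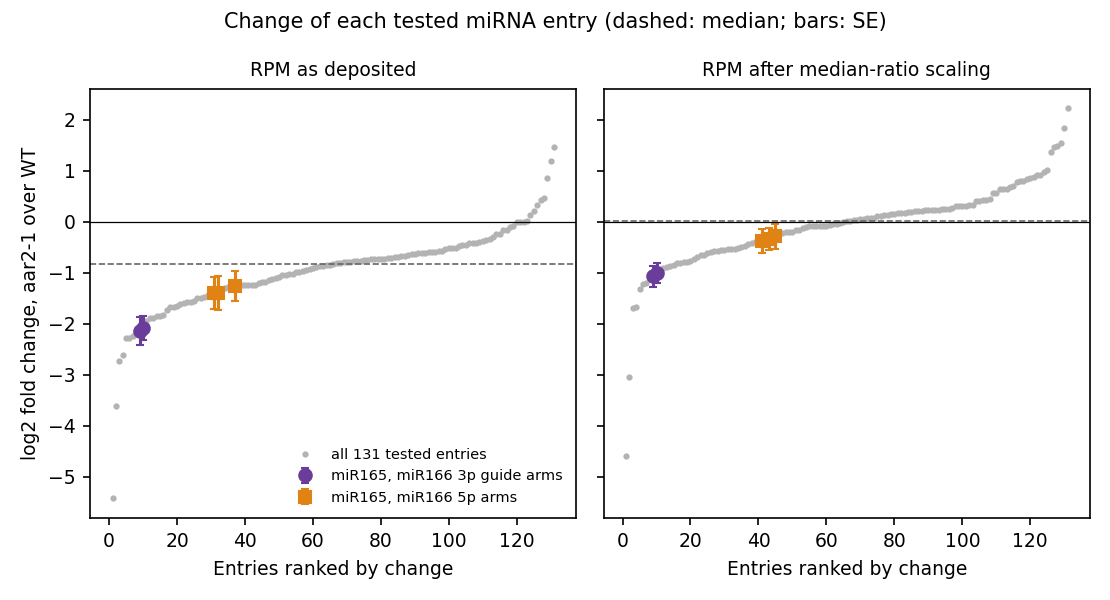
The log2 fold change of each of the 131 tested entries, ranked on the x axis, for RPM as deposited (left) and after median-ratio scaling (right), with SE bars on the miR165 and miR166 entries and a dashed line at the median. The 2 guide arms are at places 9 and 10 on both scales, with 3p values near -2.1 on the left and near -1.0 on the right, and the 5p arms lie closer to the median.

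Shares of the miRNA reads, from which the library total cancels, showed the same split between arms. The miR166 guide made up 5.27%, 5.54% and 4.21% of the miRNA reads in WT and 2.78%, 2.48% and 2.84% in aar2-1. For the miR165 guide the shares were 1.10%, 1.22% and 0.910% in WT and 0.591%, 0.504% and 0.568% in aar2-1. Neither guide overlapped between genotypes (two-sided exact permutation p = 0.10 each, the smallest that 3 against 3 libraries can give). How many of all entries had shares without overlap was not counted, so this cannot be set against a background.

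The 5p shares overlapped. They were 0.0646% ± 0.0085 in WT and 0.0531% ± 0.0048 in aar2-1 for miR165a-5p, 0.209% ± 0.017 and 0.183% ± 0.036 for the miR166a-5p and miR166b-5p entry, and 0.0310% ± 0.0037 and 0.0269% ± 0.0017 for miR166e-5p (SD, n = 3 each; two-sided exact permutation p = 0.20, 0.30 and 0.20). Together the 5 entries held 6.39% ± 0.88 of the miRNA reads in WT and 3.52% ± 0.25 in aar2-1 (exact permutation p = 0.10), a decrease that was also present when the 3 most abundant entries were left out of the total (15.8% ± 1.92 and 9.96% ± 0.58).

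The arms were next compared with each other within a library. In miR165, 5p reads were 5.77%, 5.54% and 5.70% of the reads of both arms in WT and 8.77%, 8.65% and 8.80% in aar2-1. The means were 5.67% ± 0.12 and 8.74% ± 0.078 (SD, n = 3 each), a spread smaller than the counting error of a single library (95% Wilson interval 6.91% to 10.8% for aar2-1 replicate 2, on 70 of 809 reads). These intervals cover counting error only.

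In miR166 the 5p share was 4.69%, 4.14% and 5.02% in WT and 8.27%, 7.42% and 5.94% in aar2-1. The genotypes did not overlap here either, but aar2-1 replicate 3 (interval 5.31% to 6.64%) was closer to WT replicate 3 (4.73% to 5.33%) than the other mutants were. The miR166 guide counts 7 loci and its 5p entries 3, and the miR165 guide counts 2 loci and its 5p entry 1, so the share is not that of single hairpins.

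The ratio of 5p to 3p rose in aar2-1 for both families. For miR165 the log2 ratio went from -4.02 ± 0.03 to -3.28 ± 0.02 (SD, n = 3 each), a change of 0.74 (SE 0.12, limma adjusted p 0.00236 over the 27 families with both arms measured). For miR166 it went from -4.36 ± 0.15 to -3.67 ± 0.25, a change of 0.69 (SE 0.17, limma adjusted p 0.0121). Tested alone, each ratio gave a two-sided exact permutation p of 0.10, the smallest possible. Without aar2-1 replicate 2 the miR166 change was 0.66 with a limma adjusted p of 0.0520, and it passed in the other 5 fits that left out 1 library.

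Across the 27 families the median change of the 5p to 3p ratio was 0.30. Of the families, 33.3% passed in either direction and 25.9% passed as higher. In 37.0% the ratio was higher without overlap of the genotypes. With the arms ordered by abundance instead, the less abundant arm gained on the more abundant one in 18 of 27 families (median 0.20) and passed in 25.9%. The miR165 and miR166 changes stood at places 7 and 8 from the largest increase, behind families such as miR398 (1.30, SE 0.21), which silences copper superoxide dismutases. In 12 of the 27 families the 3p arm was the more abundant, as in miR165 and miR166. Of these, miR398, miR399 (1.01), miR408 (0.95), miR158 (0.86) and miR403 (0.85) rose more, all but miR158 past the threshold. The remaining changes were 0.64 (miR162), 0.58 (miR159), 0.12 (miR172), -0.38 (miR393) and -0.80 (miR391), of which only miR391 passed. Among families of the same arm order, miR165 and miR166 thus lay mid-range.

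**Figure D3:**
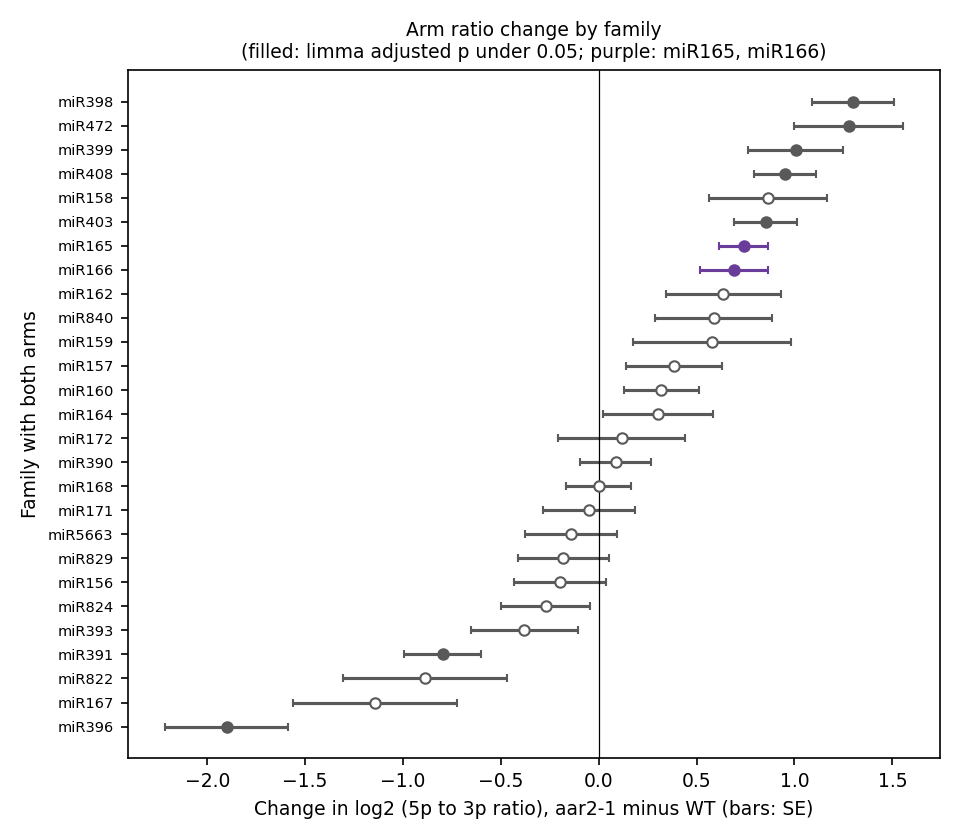
Change in the log2 ratio of 5p to 3p reads, aar2-1 minus WT, with SE, for the 27 families in which both arms had a mean of at least 1 RPM; filled points passed a limma adjusted p of 0.05. miR165 (0.74) and miR166 (0.69), in purple, lie next to each other and to the right of 0.

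The balance between the miR165 and miR166 guides overlapped between genotypes. Of the guide reads of both, miR165 made up 17.3%, 18.0% and 17.8% in WT and 17.5%, 16.9% and 16.7% in aar2-1. The miR166 guide was 4.65 ± 0.11 times as abundant as the miR165 guide in WT and 4.88 ± 0.16 times in aar2-1 (SD, n = 3 each). The log2 ratio of miR165 to miR166 differed by -0.07, with overlap (two-sided exact permutation p = 0.20).

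The proportions among the 5p arms overlapped as well, with differences smaller than the SD of either genotype. miR165a-5p made up 21.1% ± 1.62 of all 5p reads of both families in WT and 20.4% ± 2.64 in aar2-1 (SD, n = 3 each; exact permutation p = 0.70). Among miR166 5p reads, miR166e-5p, the only arm that marks MIR166e alone, held 11.9%, 14.5% and 12.3% in WT and 10.8%, 14.4% and 14.1% in aar2-1. The difference was 0.19 percentage points (exact permutation p = 1.0). With 41 or 42 miR166e-5p reads in aar2-1 replicates 3 and 2, the 95% Wilson intervals were 10.6% to 18.6% and 10.8% to 18.9%, so a shift of a few percentage points was not detectable at this depth.

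**Figure D4:**
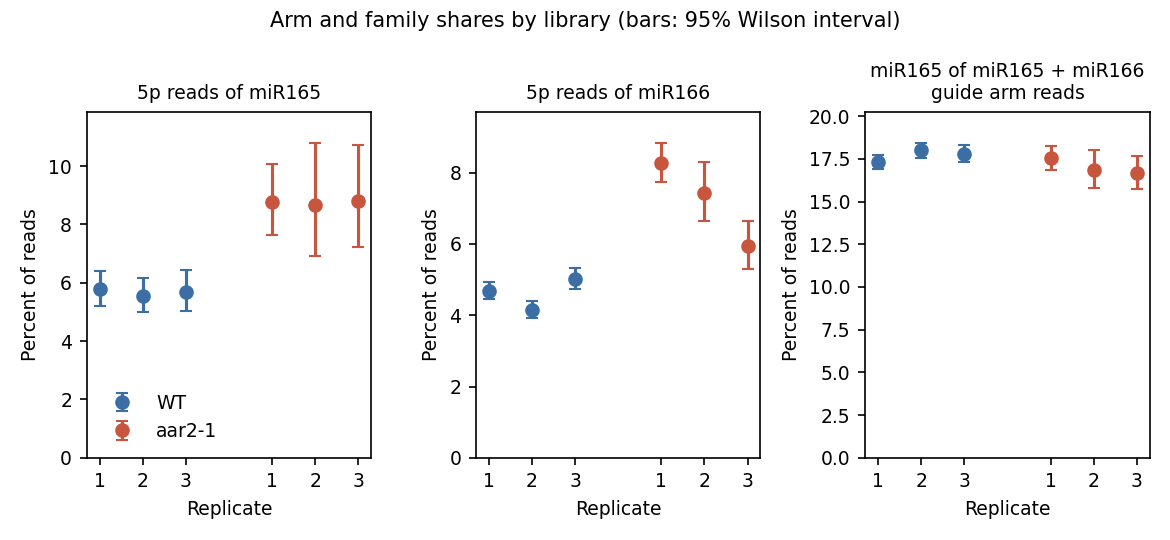
Percent of reads in each library (x axis, replicates 1 to 3 of WT and aar2-1) with 95% Wilson intervals, for the 5p arm among miR165 reads, the 5p arm among miR166 reads, and miR165 among guide reads of both families. The 5p shares are higher in every aar2-1 library (8.65% to 8.80% and 5.94% to 8.27%) than in WT (5.54% to 5.77% and 4.14% to 5.02%), whereas the miR165 share overlaps between genotypes.

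The order of the levels was the same in both genotypes: miR166 guide, miR165 guide, the miR166a-5p and miR166b-5p entry, miR165a-5p and miR166e-5p. No neighbours overlapped within a genotype. The entries differ in sequence and join different numbers of loci, so this is an order of read levels and not of single loci. The step from the miR165 guide down to the miR166a-5p and miR166b-5p entry was 5.10-fold in WT and 2.97-fold in aar2-1, and the last step, from miR165a-5p to miR166e-5p, was 2.09-fold and 1.98-fold. The libraries of aar2-1 spread more than those of WT: the coefficient of variation of the 5 entries was 6.50% to 12.7% in WT and 23.3% to 42.1% in aar2-1. The 5 entries summed to 3559, 3272 and 2851 RPM in WT and to 1017, 671 and 671 RPM in aar2-1, and replicate 1 was also the mutant library with the most miRNA reads in all.

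The profile over the 6 libraries, as log2(RPM + 1) minus its own mean, was compared with every other tested entry by the root mean square difference. The miR165 and miR166 guides differed from each other by 0.044. Outside the families the nearest to the miR166 guide were the miR162a-3p and miR162b-3p entry (0.082), miR408-3p (0.12) and the miR399b and miR399c-3p entry (0.14). The same 3 were nearest to the miR165 guide (0.053, 0.16 and 0.099). These profiles include the genotype difference, so entries with a log2 fold change near that of the guides are near them by construction. The miR162 guide, whose target is DCL1, had means of 1714 and 384 RPM in WT and mutant, a log2 difference of -2.19 ± 0.25 (SE; adjusted p 6.22e-06 in limma).

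Other miRNAs of leaf development were listed as miR160, miR164, miR167, miR319, miR390, miR394 and miR396, which act on auxin response factors, organ boundaries, leaf margins, tasiRNAs and growth. Their 22 entries include the less abundant arm of several hairpins as well as guides. Of the 22, 21 could be tested, and 12 were lower and 0 higher in limma, with a median log2 fold change of -0.79. Over all 131 tested entries 80 were lower (61.1%) and 3 higher, with a median of -0.83. After median-ratio scaling 2 of the 21 were lower and 4 higher (median 0.080), against 27 lower (20.6%) and 22 higher of all 131 (median 0.014). The lowest was miR396b-5p, which silences growth-regulating factors, at -1.96 (SE 0.29, limma adjusted p 4.51e-05). The highest was miR396b-3p at 0.47 (SE 0.32, limma adjusted p 0.187). It is the less abundant arm of the same hairpin, with a WT mean of 60.7 RPM against 2528 for miR396b-5p. As miR396b-3p was the only positive entry of the list, no entry was higher at an unadjusted limma p under 0.05 (0.157 for miR396b-3p). After median-ratio scaling miR396b-3p passed as higher (1.54, limma adjusted p 1.13e-06). Of miR390, which starts the tasiRNAs that act with the miR165 and miR166 system in leaf polarity, the guide entry of miR390a-5p and miR390b-5p was at -0.74 (SE 0.36, limma adjusted p 0.0825), and at 0.31 after median-ratio scaling (limma adjusted p 0.320).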

How the data were processed

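Each of the 6 deposited tables holds 197 miRNA entries in RPM. The unit was inferred: each of the 1182 values lay within 0.02 reads of a whole number when divided by the lowest value above 0 in that library, taken as 1 read. Which reads form the total is not given in the sources used here. Per the submitters' processing notes, cutadapt, Bowtie and the TAIR10 build were used; versions and settings are not given. Positions and sequences come from RefSeq TAIR10.1, in which all 242 mature names were found.

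Entries with a mean of at least 1 RPM (131) were fitted with limma 3.58.1 (R 4.3.3) on log2(RPM + 1), genotype as the only factor, with a variance trend, two-sided, Benjamini-Hochberg over all tested features, threshold 0.05. Sums by family and arm, and log2 5p to 3p ratios by family (each arm with a mean of at least 1 RPM, 1 RPM added), were fitted likewise. The added 1 RPM makes log2 differences of low entries smaller than the ratio of their RPM. It makes the rise of the miR165 and miR166 5p to 3p ratios larger, since it shrinks the fall of the lower 5p arm. With 0.1, 1 and 5 RPM added, the change was 0.68, 0.74 and 0.94 for miR165, and 0.68, 0.69 and 0.76 for miR166. In 20 simulated sets at these depths, limma recovered 95.7% of entries changed by 1.5 on the log2 scale. Those sets had the same spread in both genotypes and as many entries raised as lowered. In the real libraries aar2-1 spread more and most entries were lower, so this rate may not hold for them. Single values were compared by exact permutation. RNAfold 2.7.2, Python 3.11.15 and scipy 1.17.1 were used. The named entries are all of miR165 and miR166, the 3 entries nearest in profile, and the extremes of the leaf list. miR390, miR398 and the other families listed by arm order were named after their values were seen. Members and lists were chosen with earlier results of these data known.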

Additional observations from a re-analysis of the deposited data

How the results depend on the processing

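The miR165 and miR166 guide entries were lower past the threshold under every alternative run. The 5p arms passed under the other filters, pseudocounts, the replicate block and each fit that left out 1 library. Under the scalings every 5p entry missed the threshold. miR165a-5p was -0.38 (median ratio), -0.064 (centring) and -0.36 (quantile). The miR166a-5p and miR166b-5p entry was -0.33, -0.053 and -0.55 in that order, and miR166e-5p -0.29, 0.080 and 0.010. As arm sums, miR165 5p missed it at -0.38, -0.059 and -0.19, and miR166 5p at -0.33 and -0.048 (median ratio and centring). The miR166 guide sum missed it at -0.37 (quantile), whereas the miR166 5p sum passed there (-0.47, limma adjusted p 0.0124). The cause of the misses was not tested. The scalings moved the median of all tested entries from -0.83 to 0.014, 0.52 and 0.064, so centring placed it above 0.

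In place of 83 entries past the threshold, 45 passed with a mean of at least 10 RPM (69 tested), 49 after median-ratio scaling and 34 after quantile normalization; in place of 70 families by arm, 38, 45 and 29. With 1 library left out the counts were 62 to 109, 49 to 88, and 7 to 13 for the 9 arm ratios.

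In these fits the guides ranged from -2.36 to -2.04 (miR165) and -2.28 to -1.99 (miR166), miR165a-5p from -1.61 to -1.30, the miR166a-5p and miR166b-5p entry from -1.71 to -1.16, miR166e-5p from -1.41 to -1.11, and the miR166 5p sum from -1.69 to -1.17. The arm ratio change ranged from 0.72 to 0.75 (miR165) and 0.58 to 0.83 (miR166), the log2 ratio of the guides from -0.093 to -0.048, and the share of miRNA reads from -3.37 to -2.53 percentage points. The miR166e-5p share ranged from -0.46 to 1.35 percentage points, changing sign without WT replicate 1 (-0.32), WT replicate 3 (-0.10), aar2-1 replicate 2 (-0.46) or aar2-1 replicate 3 (-0.31).

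The labels give same-numbered libraries a shared number only, and whether they also share a batch is not given. Their deviations correlated by 0.49, 0.05 and -0.15 over 131 entries, and 2 of 6 libraries correlated best with their own number. With the replicate block, 98 entries, 78 families by arm and 12 arm ratios passed, and no miR165 or miR166 call changed. Count tests on recovered reads were not run, because the tables hold too few low values to check the reads. The read numbers, library totals and Wilson intervals given above rest on the same unchecked reads.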
